A study of Mus musculus with 12 samples.

Results

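The receptor chains for interferons and the Janus kinases that they carry were followed in mouse embryonic fibroblasts (MEFs) through all probe sets annotated to 7 genes (Ifnar1, Ifnar2, Ifngr1, Ifngr2, Jak1, Jak2 and Tyk2), of 18193 genes with a probe set of their own in the series. A probe set is a group of short oligonucleotides against one transcript. The annotation gave 15 of them for these genes, and 14 of the 15 passed the filter on dim signals. RNA came from cultured MEFs, labelled as a cell line with no strain, genotype or clone given, and was measured on 12 Affymetrix arrays in 6 groups of 2 arrays. AMN107-IFNg and AMN107-IFNa cells received AMN107 (nilotinib, an inhibitor of the ABL kinases) before 6 h of type II (IFNg) or type I (IFNa) interferon. IFNg and IFNa cells received the interferon for 6 h without AMN107, AMN107 cells received only the inhibitor, and DMSO cells, named for the solvent, received neither. The labels give no dose of any agent and no duration of AMN107, and they name biological replicates without saying that these came from separate cultures, so p-values measure only the spread between these arrays.

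Type I interferons bind a receptor made of Ifnar1 and Ifnar2, with Tyk2 bound to Ifnar1 and Jak1 to Ifnar2. Interferon gamma binds Ifngr1, which carries Jak1, and recruits Ifngr2, which carries Jak2. Once the chains are brought together the kinases phosphorylate one another, the receptor tails and STAT transcription factors, which act on gamma-activated sites (GAS) and interferon-stimulated response elements (ISRE). Fibroblasts carry both receptors, and the chains and kinases are present before any stimulus.

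The promoters of Ifnar2 and Jak2, whose signals were higher with IFNg in the results below, and of Ifnar1, the other type I chain, are shown here, each running 5′ to 3′ on its gene's strand, 250 bases before to 50 bases after the annotated start (RefSeq, build GRCm38.p6). Capitals mark a match to the GAS letters TTCNNNGAA, and a promoter with no capitals holds none.
Ifnar2, chr16:91372533-91372832, plus strand: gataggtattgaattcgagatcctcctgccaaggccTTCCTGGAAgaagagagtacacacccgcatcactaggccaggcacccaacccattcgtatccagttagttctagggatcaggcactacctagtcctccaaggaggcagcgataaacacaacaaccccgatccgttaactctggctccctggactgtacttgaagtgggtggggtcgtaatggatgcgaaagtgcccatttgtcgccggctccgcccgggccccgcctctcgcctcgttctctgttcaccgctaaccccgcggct
Ifnar1, chr16:91484965-91485264, plus strand: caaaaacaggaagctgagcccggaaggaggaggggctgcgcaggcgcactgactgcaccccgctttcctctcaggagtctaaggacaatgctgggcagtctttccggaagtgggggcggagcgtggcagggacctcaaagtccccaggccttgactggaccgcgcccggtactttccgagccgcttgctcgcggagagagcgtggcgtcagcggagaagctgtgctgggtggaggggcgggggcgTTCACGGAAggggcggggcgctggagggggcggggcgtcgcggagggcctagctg
Jak2, chr19:29251553-29251852, plus strand: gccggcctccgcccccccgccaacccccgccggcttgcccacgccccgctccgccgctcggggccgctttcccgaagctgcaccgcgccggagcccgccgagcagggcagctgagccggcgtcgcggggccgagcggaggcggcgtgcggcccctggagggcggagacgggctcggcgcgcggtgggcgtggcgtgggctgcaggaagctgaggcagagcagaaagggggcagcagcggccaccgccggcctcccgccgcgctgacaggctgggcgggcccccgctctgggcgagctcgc
The GAS letters, which read the same on both strands, occurred in 2 of the 7 promoters (Ifnar2 and Ifnar1), and in 8.3% of 32851 promoters of the same length in the table. The core of an ISRE, searched as TTTC, any 2 bases and TTTC again, or its reverse complement (GAAA, any 2 bases and GAAA), occurred in 0 of the 7 and in 3.44% of all promoters. The promoter of Jak1, which was also higher with IFNg on probe set 1433804_at, is not shown and held neither match. These matches describe letters in this window and were not tested for binding.

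Median signals over all probe sets were 20.6 to 22.1 on the 10 arrays with any agent and 22.5 to 22.8 on the DMSO arrays, whereas trimmed means were 105 to 113 on those 10 and 100.4 to 101 on the DMSO arrays. The DMSO arrays thus had the highest medians and the lowest trimmed means. The cells were fibroblast-like by their markers: 9 of 12 fibroblast markers lay above the array's median on all 12 arrays, among them Col1a2 and Vim, while Thy1 and Lum did so on none. Of 9 leukocyte markers 3 lay above the median on all arrays, Cd14 (signals 114 to 172), Csf1r and Cd3e. Cd68 and Fcgr1 did so on 11 arrays, and Ptprc, Adgre1 and Itgam on none. Of 5 epithelial markers Epcam did so on all arrays and 2 on none, and of 5 endothelial markers Kdr did so on all and 4 on none. Some markers of other cell types were thus above the median too. The summed leukocyte signal was 278 to 297 on the AMN107-IFNg arrays, against 344 to 355 on the IFNg arrays and 346 to 357 on the DMSO arrays, with 309 to 349 in the other groups. The epithelial sum was 96.5 to 120.01 on the 6 arrays with AMN107, against 126 to 163 on the 6 without, and the endothelial sum was 71.2 to 82.9, against 74.0 to 90.4. The fibroblast sum was 5288 to 7450 on the 10 arrays with any agent, against 4690 to 4842 on the DMSO arrays, so it was lowest with DMSO, as were several members below. The part of these sums in the results was not tested. In RNA from bulk cells, fewer cells of a type and less RNA per cell cannot be told apart. IFNa replicate 2 stood apart: its 5′/3′ signal ratio was 0.0252 for GAPDH and 0.212 for actin, against 1.074 to 1.16 and 0.676 to 0.83 on the other 11 arrays. Among those 11 both ratios differed by treatment. For GAPDH it was 1.122 to 1.161 with AMN107 and 1.074 to 1.098 without. For actin it was 0.798 to 0.83 with AMN107, 0.791 to 0.795 with IFNg, 0.696 on IFNa replicate 1 and 0.676 to 0.712 with DMSO. The actin ratio was thus higher in the groups with AMN107 or IFNg, as were several members, and its part in their differences was not tested. The difference between replicates had an SD of 0.43 (log2) in the IFNa group, against 0.13 to 0.16 in the others. Called differences that use the IFNa arrays are therefore given with and without this array, and the spread that it widened also entered all other tests.

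Signals below are linear and belong to one probe set each, so levels of different probe sets are not compared. A difference is that of log2(signal + 8.66), given with its standard error, and was called at a limma adjusted p under 0.05 over 24353 tested probe sets. With IFNg, 6 of 14 probe sets were higher than with DMSO and 0 lower, where 8.99% of all tested probe sets were called (6.66% higher and 2.33% lower). They were all 3 tested probe sets of Ifnar2, both of Jak2 and 1 of Jak1, and the median difference over the 14 was 0.39, against -0.02 over all. Probe sets of 1 gene are not independent. With 1 probe set per gene, 2 of 7 were called, where 9.05% of all were, and the medians were 0.29 and -0.03. In cells that also had AMN107, AMN107-IFNg was higher than AMN107 in 4 of 14, and lower in 0, from Ifnar2 and Jak2, where 1.79% of all were called (1.74% higher and 0.0452% lower), and the medians were 0.08 and -0.03. These 4, of which 3 belong to Ifnar2, were called higher with IFNg in both settings, and 1.33% of all probe sets were. The 2 settings share no arrays but share the estimate of the spread, which comes from all 12 arrays. AMN107 alone moved 8 of 14, 7 higher and 1 lower, but 33.1% of all probe sets were called in that comparison, 20.7% higher and 12.4% lower (medians 0.30 and 0.03). After quantile normalization, which gives all arrays the same distribution of signals, 3 of 14 were higher and 2 lower with AMN107 (34.4% of all called, 46% of those calls higher), while IFNg against DMSO again had 6 higher and 0 lower. With IFNa, 2 of 14 were higher than with DMSO and 0 lower, near the 12% of all that were called (8.91% higher and 3.08% lower). AMN107-IFNa differed from AMN107 in 0 of 14 by limma's adjusted p (0 also at an unadjusted p under 0.05), and in 0.119% of all, each of them higher. Without both IFNa arrays, 8 of 14 were called for IFNg against DMSO (28.8% of all), 9 for AMN107 against DMSO (52.3%), 5 for AMN107-IFNg against AMN107 (4.83%) and 7 for AMN107-IFNg against IFNg (34.6%). IFNa against DMSO gave 1 of 14, Ifngr1, without IFNa replicate 2 (5.82% of all), and 9 without IFNa replicate 1 (54.3%), which leaves only the array that stood apart.

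**Figure D1:**
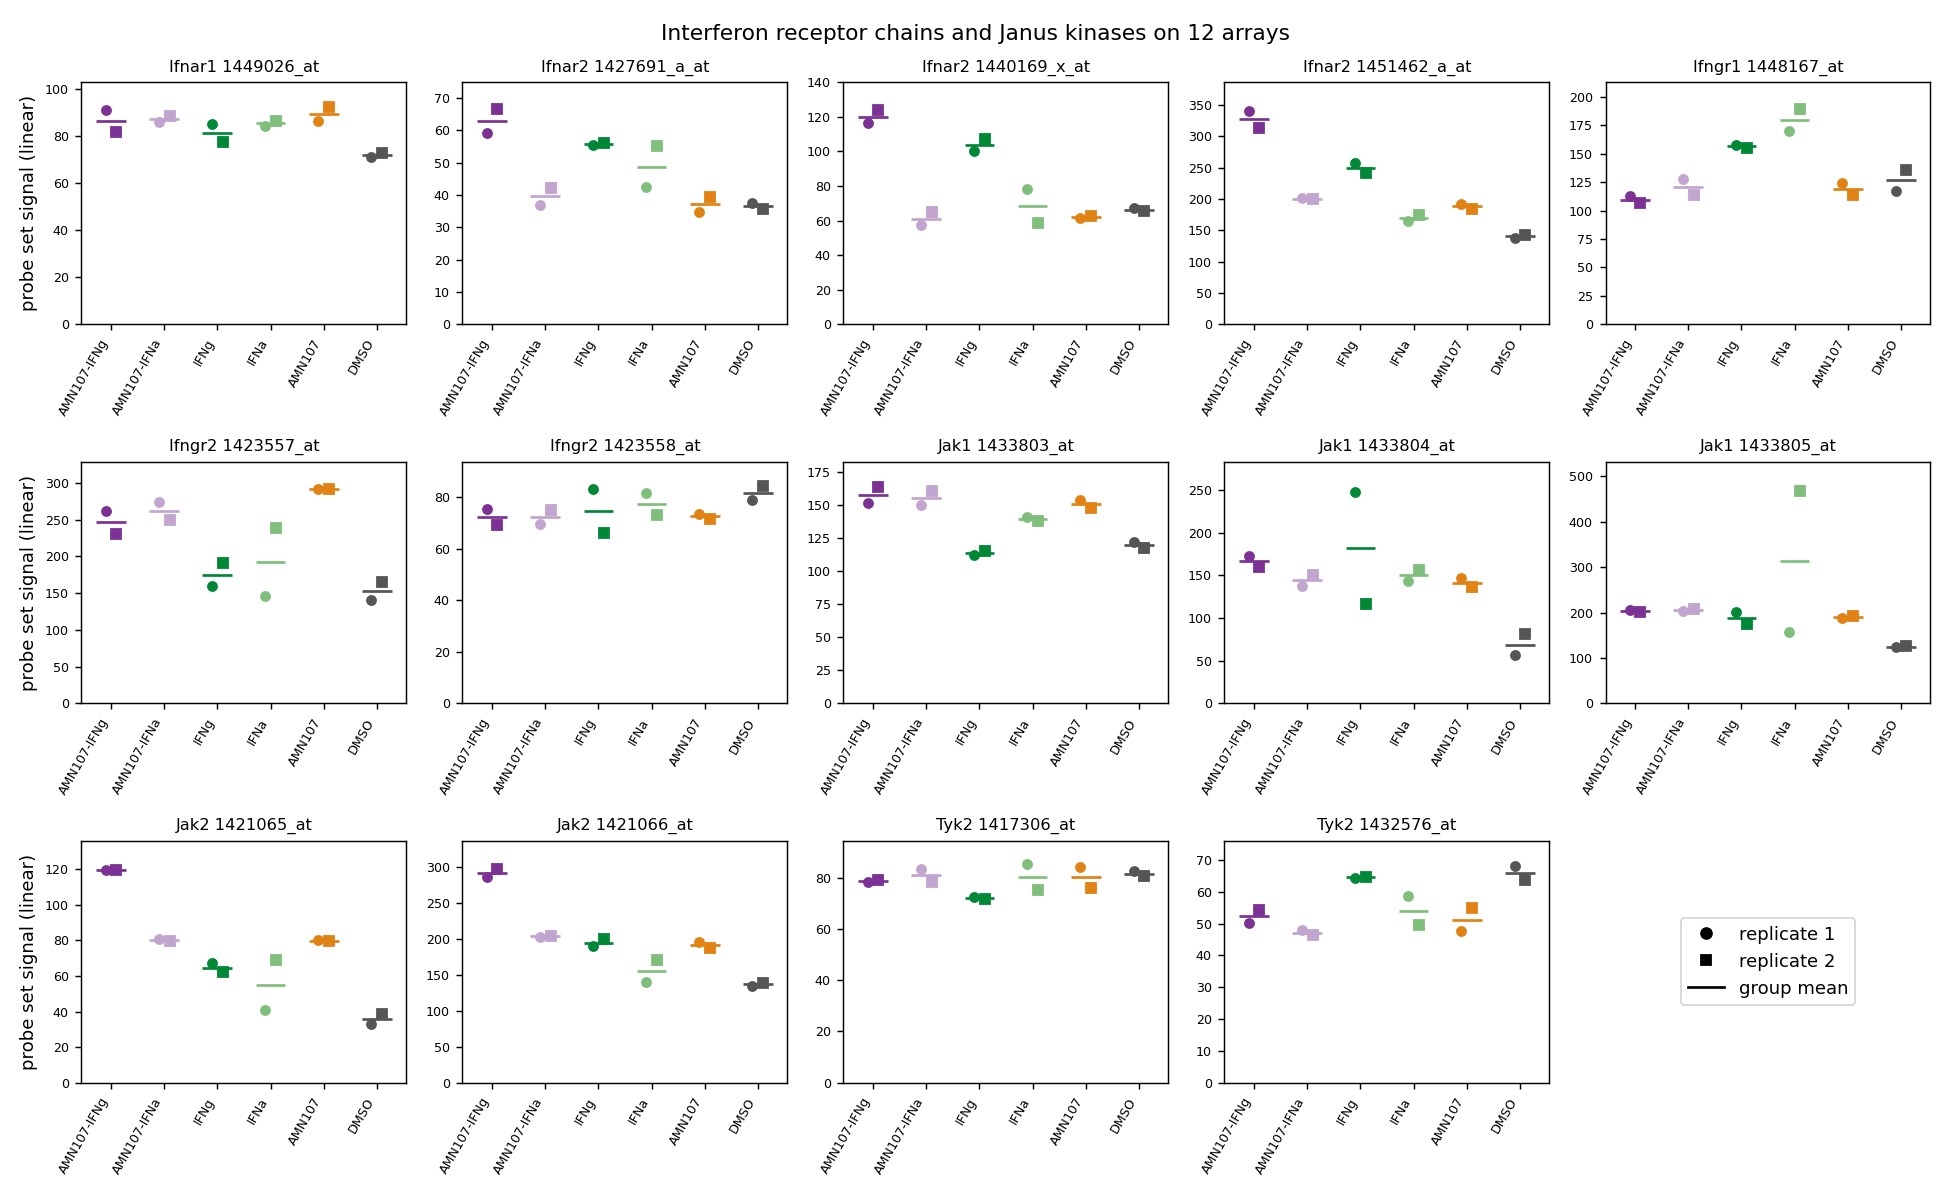
Linear signal (vertical axes, from 0) of the 14 tested probe sets on each of the 12 arrays, with circles for replicate 1, squares for replicate 2 and a line for the group mean. The AMN107-IFNg arrays are the highest of all for Ifnar2 1451462_a_at (341 and 313) and for both Jak2 probe sets, and IFNa replicate 2 stands far above replicate 1 for Jak1 1433805_at (467 against 158).

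Ifnar2, the high-affinity chain of the type I receptor, was the member that rose most steadily, and it rose with the type II interferon. Its brightest probe set, 1451462_a_at, had signals of 341 and 313 on the AMN107-IFNg arrays, 201 and 199 on AMN107-IFNa, 258 and 242 on IFNg, 166 and 175 on IFNa, 192 and 184 on AMN107 and 138 and 143 on DMSO. Both AMN107-IFNg arrays lay above every other array, both IFNg arrays came next, and the DMSO arrays were the lowest. IFNg raised it by 0.79 ± 0.09 (log2, SE) over DMSO, a 1.73-fold change of signal + 8.66 (limma adjusted p = 0.000452). AMN107-IFNg was above AMN107 by 0.77 ± 0.09 (adjusted p = 0.000935), and the responses with and without AMN107 differed by -0.02 ± 0.13 (adjusted p = 0.966). Both calls remained in every alternative tried, with adjusted p up to 0.00991 and up to 0.0252. With IFNa the probe set was above DMSO by 0.26 ± 0.09 (adjusted p = 0.0692), and by 0.23 without IFNa replicate 2 (adjusted p = 0.13). AMN107 by itself was above DMSO by 0.40 ± 0.09 (adjusted p = 0.0081), and AMN107-IFNg above IFNg by 0.38 ± 0.09 (adjusted p = 0.0187).

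The effects of AMN107 on Ifnar2 held less firmly than those of IFNg. After quantile normalization they were 0.20 without interferon (adjusted p = 0.0969) and 0.28 with IFNg (adjusted p = 0.0533), neither of them called. Without DMSO replicate 1 or AMN107 replicate 1 the first had adjusted p = 0.0615 or 0.062, and without IFNg replicate 1 or 2 or AMN107-IFNg replicate 1 or 2 the second had 0.0581, 0.118, 0.17 or 0.0564.

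The other Ifnar2 probe sets gave the IFNg response too. On 1427691_a_at the signals were 59.3 and 66.5 with AMN107-IFNg, 36.8 and 42.3 with AMN107-IFNa, 55.5 and 56.2 with IFNg, 42.4 and 55.1 with IFNa, 34.8 and 39.5 with AMN107 and 37.4 and 35.8 with DMSO. On 1440169_x_at, whose suffix marks probes that may also match other transcripts, they were 116 and 124, 57.3 and 65.0, 100.3 and 107, 78.1 and 58.7, 61.3 and 62.6, and 67.0 and 65.7 in the same order of groups. On both, the 4 arrays with IFNg lay above the other 8, though IFNa replicate 2 came close on 1427691_a_at. The differences of IFNg from DMSO were 0.51 ± 0.12 and 0.58 ± 0.12 (adjusted p = 0.0245 and 0.0151), and those of AMN107-IFNg from AMN107 were 0.64 ± 0.12 and 0.87 ± 0.12 (adjusted p = 0.0195 and 0.00334). Without any single DMSO or IFNg array the first pair was no longer called (adjusted p = 0.118 to 0.128 for 1427691_a_at and 0.0742 to 0.102 for 1440169_x_at). Without AMN107 replicate 1 or 2 or AMN107-IFNg replicate 1 or 2, 1427691_a_at in AMN107 cells had adjusted p = 0.25, 0.0752, 0.0863 or 0.218, and 1440169_x_at had 0.0513 without AMN107 replicate 1 and 0.0516 without AMN107-IFNg replicate 2. AMN107 alone moved neither (0.02 ± 0.12 and -0.09 ± 0.12, adjusted p = 0.934 and 0.602), unlike the brightest probe set. The 3 probe sets correlated at r = 0.787 to 0.819 over the 12 arrays, and at 0.81 to 0.971 without IFNa replicate 2. Without that array AMN107-IFNa was above IFNa on 1451462_a_at (0.26, adjusted p = 0.0362) and below it on 1440169_x_at (-0.32, adjusted p = 0.0279), neither of which was called with it (0.22 and -0.13, adjusted p = 0.096 and 0.465).

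IFNg and IFNa could be set against each other for Ifnar2. IFNg was higher than IFNa on 1440169_x_at (0.56 ± 0.12, adjusted p = 0.019) and on 1451462_a_at (0.53 ± 0.09, adjusted p = 0.00808). These were 2 of 14 called, both higher, where 14.1% of all probe sets were called (4.48% higher and 9.65% lower). Without IFNa replicate 2, 6 of 14 were called, where 21.8% of all were, among them all 3 of Ifnar2 (0.34, adjusted p = 0.0483, for 1427691_a_at, 0.37, adjusted p = 0.0184, for 1440169_x_at and 0.57, adjusted p = 0.000661, for 1451462_a_at). Without IFNg replicate 1, 1451462_a_at had adjusted p = 0.0559 and 1440169_x_at 0.0728, and without IFNg replicate 2 the second had 0.114. In a fit of these 2 groups alone, where the IFNa arrays set more of the spread, the adjusted p were 0.356 for 1451462_a_at and 0.359 for 1440169_x_at, and with array weights they were 0.168 and 0.202.

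**Figure D2:**
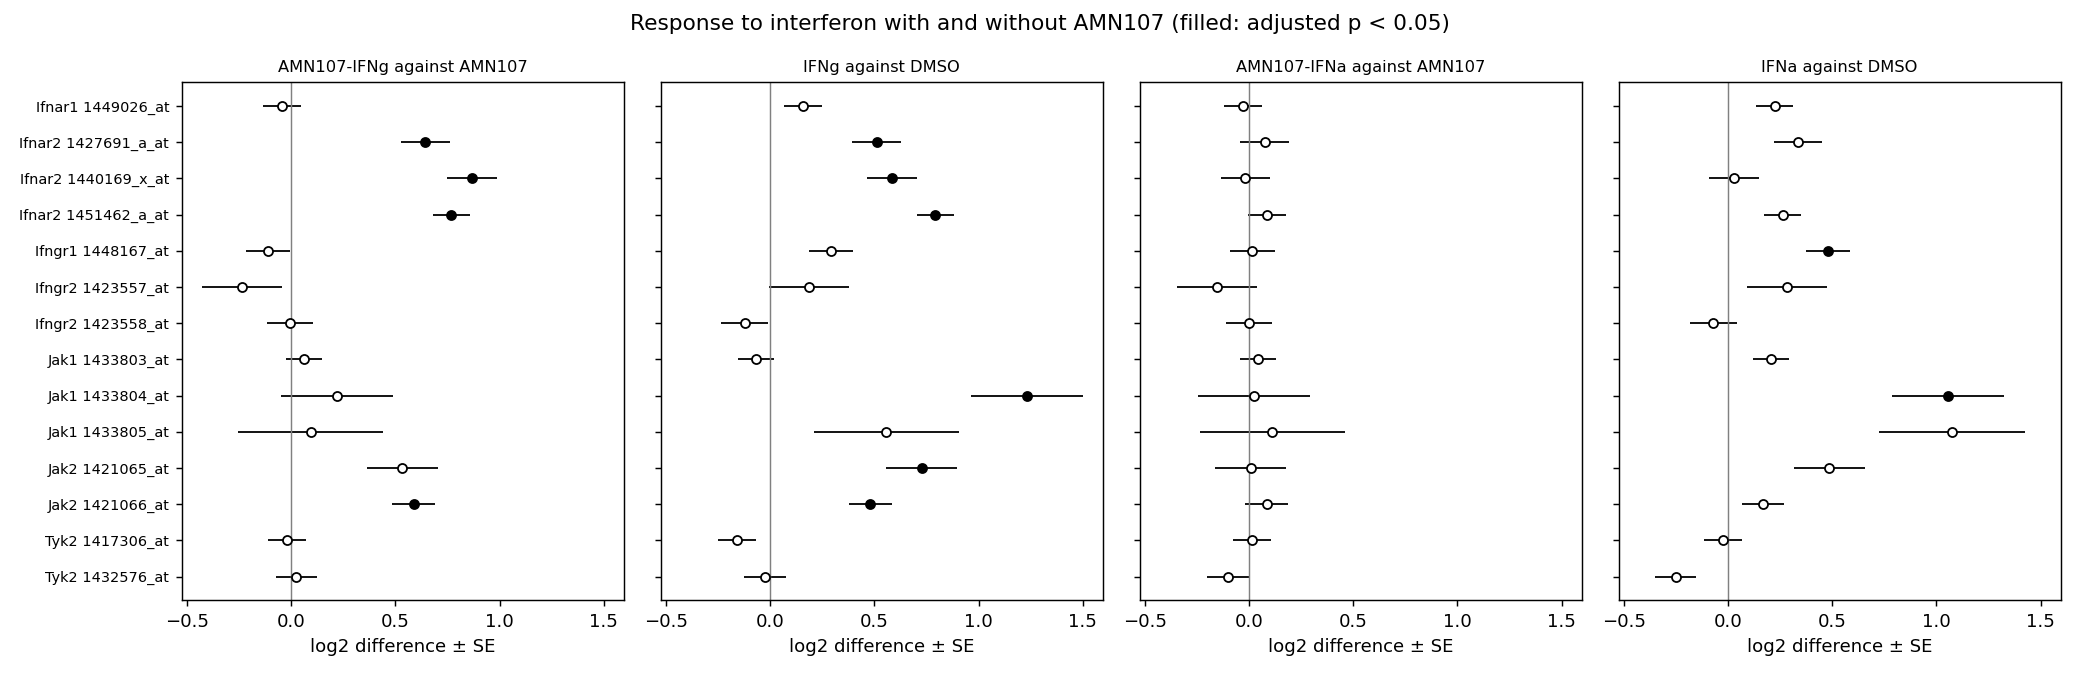
Difference between interferon and no interferon (horizontal axis, log2 ± SE) for the 14 tested probe sets, in panels for AMN107-IFNg against AMN107, IFNg against DMSO, AMN107-IFNa against AMN107 and IFNa against DMSO, with filled points called at adjusted p under 0.05. The 3 Ifnar2 probe sets are filled in both IFNg panels (0.51 to 0.87), and 0 of 14 are filled in the panel of AMN107-IFNa.

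Ifnar1, the chain that carries Tyk2, moved less than Ifnar2. Its probe set 1449026_at had signals of 91.1 and 81.8 with AMN107-IFNg, 85.9 and 88.7 with AMN107-IFNa, 85.2 and 77.3 with IFNg, 84.2 and 86.5 with IFNa, 86.3 and 92.4 with AMN107 and 71.0 and 72.9 with DMSO. The DMSO arrays were the lowest, and the other 10 arrays overlapped. AMN107 was above DMSO by 0.28 ± 0.09 (limma adjusted p = 0.0367), which quantile normalization lowered to 0.10 (adjusted p = 0.37). The call was also lost without DMSO replicate 1 or 2, AMN107 replicate 1 or 2 or AMN107-IFNa replicate 1 or 2 (adjusted p = 0.0546 to 0.199), and without the filter on dim probe sets (0.066). With IFNg the difference from DMSO was 0.16 ± 0.09 (adjusted p = 0.316), so the rise of one type I chain with IFNg was not called for the other. The second probe set, 1442222_at, had signals of 6.23 to 10.1, below the median of all 12 arrays, and was not tested.

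On chromosome 16 the annotation orders the class II receptor genes as Ifnar2, Il10rb, Ifnar1 and Ifngr2. Of the 2 probe sets of Il10rb, 1 passed the filter on dim signals and is given here. Il10rb, a chain of the receptors for interleukin 10 and type III interferons that lies between both type I chains, had signals of 124 and 116 with IFNg and 114 and 119 with DMSO. These overlapped, and the difference was 0.04 ± 0.10 (limma adjusted p = 0.858). With AMN107 it had signals of 131 and 138, a difference of 0.19 ± 0.10 from DMSO (adjusted p = 0.167). Among these neighbours the IFNg response was therefore called for Ifnar2 alone.

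Ifngr1, the ligand-binding chain for interferon gamma, was highest with IFNa, and lower with AMN107 in cells given either interferon. Probe set 1448167_at had signals of 113 and 106 with AMN107-IFNg, 128 and 114 with AMN107-IFNa, 158 and 155 with IFNg, 170.0 and 189 with IFNa, 125 and 114 with AMN107 and 117 and 136 with DMSO. The 4 arrays with interferon and no AMN107 lay above the other 8, which overlapped among themselves. IFNa exceeded DMSO by 0.48 ± 0.11 (limma adjusted p = 0.0318, and 0.41 with 0.0443 without IFNa replicate 2) and IFNg did by 0.29 ± 0.11 (adjusted p = 0.12). AMN107-IFNa was below IFNa by 0.54 ± 0.11 (log2 -0.54, adjusted p = 0.00564, and -0.47 with 0.00434 without IFNa replicate 2), one of 3 of 14 called in that comparison (2 higher and 1 lower), where 24.1% of all were (11.2% higher and 12.9% lower). Without IFNa replicate 2, 7 of 14 were called there, with 32.2% of all. AMN107-IFNg was below IFNg by 0.48 ± 0.11 (log2 -0.48, adjusted p = 0.014), one of 5 of 14 called (4 higher and 1 lower), where 15.4% of all were (11% higher and 4.41% lower). AMN107 without interferon differed from DMSO by -0.08 ± 0.11 (adjusted p = 0.6).

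The interaction asks whether the response to interferon differed with AMN107. For Ifngr1 it was -0.46 ± 0.15 for IFNa (limma adjusted p = 0.187, and -0.39 with 0.176 without IFNa replicate 2) and -0.40 ± 0.15 for IFNg (adjusted p = 0.279), and 0 of 14 probe sets were called in either (2 in each at an unadjusted p under 0.05). Of all probe sets 0.152% were called in the first, each with a lower response in AMN107 cells, and 1.38% in the second (0.111% with a higher and 1.26% with a lower response). Without IFNa replicate 1, 6 of 14 were called in the IFNa interaction (43.8% of all), and without IFNa replicate 2, 0 were. Without both IFNa arrays, or without either one, the IFNg interaction of Ifngr1 was called (-0.40, adjusted p = 0.0476 to 0.0481), and so was the rise with IFNg alone (0.29, adjusted p = 0.0232 to 0.0235). The rise with IFNa was not called without DMSO replicate 1 (0.38, adjusted p = 0.201) or 2 (0.58, 0.0834), or without any single IFNg, AMN107, AMN107-IFNa or AMN107-IFNg array (0.0511 to 0.0593), and after quantile normalization it was 0.28 (adjusted p = 0.102). With array weights and in a fit of the 2 groups alone it had adjusted p = 0.255 and 0.35, and the fall in AMN107-IFNa cells had 0.113 and 0.162. That fall had adjusted p = 0.0515 without AMN107-IFNa replicate 2, and the fall in AMN107-IFNg cells 0.07 to 0.0959 without any single IFNg or AMN107-IFNg array.

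Ifngr2, the chain that carries Jak2, was higher with AMN107 on one of its probe sets. On 1423557_at the signals were 262 and 230.2 with AMN107-IFNg, 273 and 249 with AMN107-IFNa, 159 and 191 with IFNg, 146 and 239 with IFNa, 292 and 291 with AMN107 and 141 and 165 with DMSO. All 6 arrays with AMN107 lay above the IFNg and DMSO arrays, and IFNa replicate 2 reached into their range. AMN107 exceeded DMSO by 0.90 ± 0.19, a 1.86-fold change (limma adjusted p = 0.00666, and 0.0623 without DMSO replicate 1). AMN107-IFNg exceeded IFNg by 0.47 ± 0.19 (adjusted p = 0.129), which was called without either or both IFNa arrays (0.00219 to 0.00222). AMN107-IFNa exceeded IFNa by 0.46 ± 0.19 (adjusted p = 0.11), and by 0.80 without IFNa replicate 2 (adjusted p = 0.000217). The second probe set, 1423558_at, did not follow: its signals were 69.0 to 75.3 on the 6 arrays with AMN107 and 66.2 to 84.4 on the 6 without, and the AMN107 difference from DMSO was -0.15 ± 0.11 (adjusted p = 0.308). After quantile normalization it was -0.34 and called lower (adjusted p = 0.0415), opposite to 1423557_at. The probe sets correlated at r = -0.641 over the 12 arrays and -0.636 without IFNa replicate 2, so the rise of Ifngr2 rests on one of them.

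**Figure D3:**
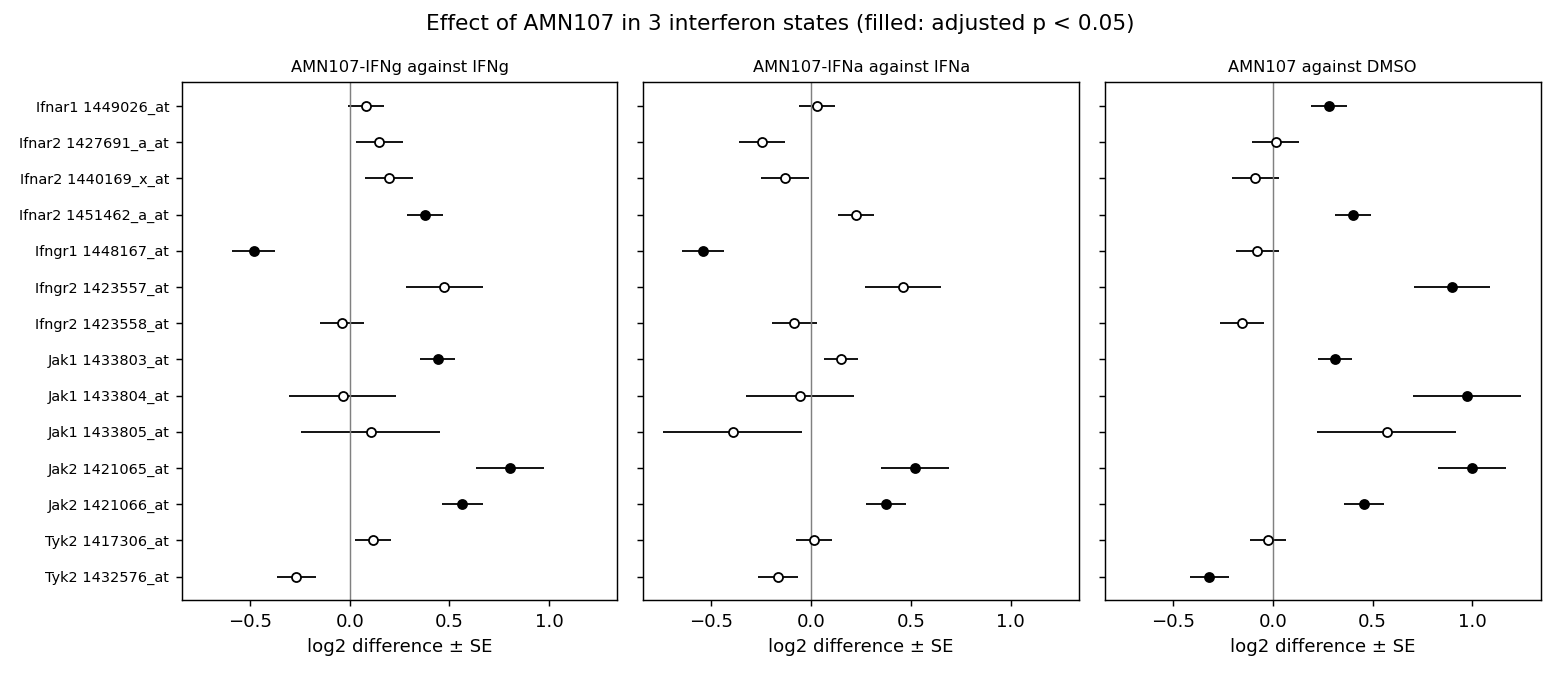
Difference between AMN107 and no AMN107 (horizontal axis, log2 ± SE) for the 14 tested probe sets with IFNg, with IFNa and without interferon, with filled points called at adjusted p under 0.05. Both Jak2 probe sets are filled to the right of 0 in all 3 panels (0.37 to 1.0), and Ifngr1 is filled to the left of 0 in the panels with interferon (-0.48 and -0.54).

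Jak2, the kinase bound to Ifngr2 and to receptors such as those for growth hormone and erythropoietin, was higher with both IFNg and AMN107, and highest with the 2 combined. On 1421066_at the signals were 286 and 298 with AMN107-IFNg, 202 and 204 with AMN107-IFNa, 189 and 199.7 with IFNg, 140.4 and 171 with IFNa, 196 and 187 with AMN107 and 135 and 139 with DMSO. On 1421065_at they were 119 and 119, 80.9 and 79.8, 67.4 and 62.0, 40.8 and 69.1, 80.4 and 79.4, and 32.8 and 38.7 in the same order of groups. On both the AMN107-IFNg arrays stood above all others and the DMSO arrays below all others. The probe sets correlated at r = 0.952 over the 12 arrays and 0.962 without IFNa replicate 2.

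IFNg raised Jak2 over DMSO by 0.73 ± 0.17 on 1421065_at and 0.48 ± 0.10 on 1421066_at (limma adjusted p = 0.0267 and 0.0181). AMN107 alone raised it by 1.0 ± 0.17, a 2.0-fold change, and by 0.46 ± 0.10 (adjusted p = 0.00222 and 0.00833). AMN107-IFNg exceeded IFNg by 0.80 ± 0.17 and 0.56 ± 0.10 (adjusted p = 0.0113 and 0.00542), and AMN107-IFNa exceeded IFNa by 0.52 ± 0.17 and 0.37 ± 0.10 (adjusted p = 0.0497 and 0.0246). Without IFNa replicate 2 the last pair was 0.85 and 0.51 (adjusted p = 3.73e-05 and 0.000433). AMN107-IFNg exceeded AMN107 by 0.53 ± 0.17 (adjusted p = 0.282) and 0.59 ± 0.10 (adjusted p = 0.0152), and without either or both IFNa arrays the first was called as well (0.00118 to 0.00122). The interaction with IFNg was -0.20 ± 0.24 and 0.11 ± 0.14 (adjusted p = 0.806 and 0.829), so a difference in the IFNg response with AMN107 was not detected at this number of arrays.

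The rise of 1421065_at with AMN107 alone was called in every alternative tried (adjusted p up to 0.0284), and the other Jak2 calls were not. Those of IFNg were lost without any single DMSO or IFNg array (adjusted p = 0.0774 to 0.203 and 0.0802 to 0.137), and that of 1421065_at also without any single AMN107 or AMN107-IFNg array (0.0503 to 0.0506). The rise of 1421066_at with AMN107 was lost without DMSO replicate 1 (0.0608) or AMN107 replicate 1 (0.0602) and after quantile normalization (0.26, adjusted p = 0.0531). That of 1421066_at in AMN107-IFNg over AMN107 was lost without any single array of the 2 groups (0.121 to 0.172). Of AMN107-IFNg over IFNg, 1421066_at was lost without AMN107-IFNg replicate 2 (0.0502) and 1421065_at without any single array of the 2 groups (0.0547 to 0.0821). Of AMN107-IFNa over IFNa, 1421066_at was lost without AMN107-IFNa replicate 1 (0.114) or 2 (0.109), under median centring (0.0505), with array weights (0.185) and in a fit of the 2 groups alone (0.29). The call of 1421065_at was lost in 16 of 21 alternatives: without IFNa replicate 1 (0.19, adjusted p = 0.143) or any single array of the other groups (0.0683 to 0.188), with a smaller pseudocount (0.0517), without the filter on dim probe sets (0.0694), under median centring (0.0792), with array weights (0.139) and in the 2 groups alone (0.303).

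Jak1, the kinase shared by both interferon receptors, gave probe sets that disagreed. On 1433803_at the signals were 151 and 164 with AMN107-IFNg, 150.2 and 161 with AMN107-IFNa, 112 and 115 with IFNg, 141 and 138 with IFNa, 154 and 148 with AMN107 and 122 and 117 with DMSO. All 6 arrays with AMN107 lay above the 6 without it. AMN107 exceeded DMSO by 0.31 ± 0.09 (limma adjusted p = 0.0209) and AMN107-IFNg exceeded IFNg by 0.44 ± 0.09 (adjusted p = 0.00784), while IFNg differed from DMSO by -0.07 ± 0.09 (adjusted p = 0.683). The first was 0.11 after quantile normalization (adjusted p = 0.366) and was lost without any single AMN107 or DMSO array (0.0754 to 0.115), and the second was lost without IFNg replicate 1 (0.0555) or AMN107-IFNg replicate 2 (0.074).

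On Jak1 1433804_at the signals were 173 and 159.8 with AMN107-IFNg, 138 and 151 with AMN107-IFNa, 248 and 117 with IFNg, 144 and 157 with IFNa, 147 and 136 with AMN107 and 56.4 and 81.2 with DMSO. The DMSO arrays were the lowest, and IFNg replicate 1 was more than 100 units above IFNg replicate 2. Over DMSO it was higher with IFNg by 1.23 ± 0.27 (limma adjusted p = 0.0201), with IFNa by 1.05 ± 0.27 (adjusted p = 0.0413) and with AMN107 by 0.97 ± 0.27 (adjusted p = 0.0208). The IFNg value was 0.71 without IFNg replicate 1 (adjusted p = 0.0826) and 1.0 without DMSO replicate 1 (0.183). The IFNa call was lost without IFNa replicate 2 (0.99, adjusted p = 0.0539), after quantile normalization (0.88, adjusted p = 0.0663), with array weights (0.288), in the 2 groups alone (0.35), and without any single DMSO, AMN107, AMN107-IFNa or AMN107-IFNg array (0.0636 to 0.223). The interaction of AMN107 with IFNg was -1.01 ± 0.38 (adjusted p = 0.285), and was called without IFNg replicate 2 (-1.53, adjusted p = 0.0436) and with array weights (-1.01, adjusted p = 0.0375). The AMN107 call was lost without DMSO replicate 1 (0.156) or AMN107 replicate 1 (0.0976) or 2 (0.0811).

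On Jak1 1433805_at the signals were 205 and 201 with AMN107-IFNg, 204 and 208 with AMN107-IFNa, 202 and 175 with IFNg, 158 and 467 with IFNa, 187 and 193 with AMN107 and 123 and 127 with DMSO. The DMSO arrays were again the lowest, and IFNa replicate 2 was the highest of all arrays. No comparison of it was called: IFNa exceeded DMSO by 1.08 ± 0.35 (limma adjusted p = 0.063). That was 0.32 without IFNa replicate 2 (adjusted p = 0.0604) and 1.83 without IFNa replicate 1 (adjusted p = 4.74e-09). Without both IFNa arrays, IFNg exceeded DMSO by 0.56 (adjusted p = 8.66e-05), AMN107 exceeded DMSO by 0.57 (adjusted p = 3.25e-05), and the IFNg interaction was -0.47 (adjusted p = 0.0105). AMN107-IFNa minus IFNa was -0.39 ± 0.35 with all arrays (adjusted p = 0.454) and turned to 0.36 without IFNa replicate 2 (adjusted p = 0.00873). The probe sets 1433804_at and 1433805_at correlated at r = 0.567 over 12 arrays and 0.858 without that array, and 1433803_at correlated with 1433804_at at 0.306 and 0.31 and with 1433805_at at 0.301 and 0.576.

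**Figure D4:**
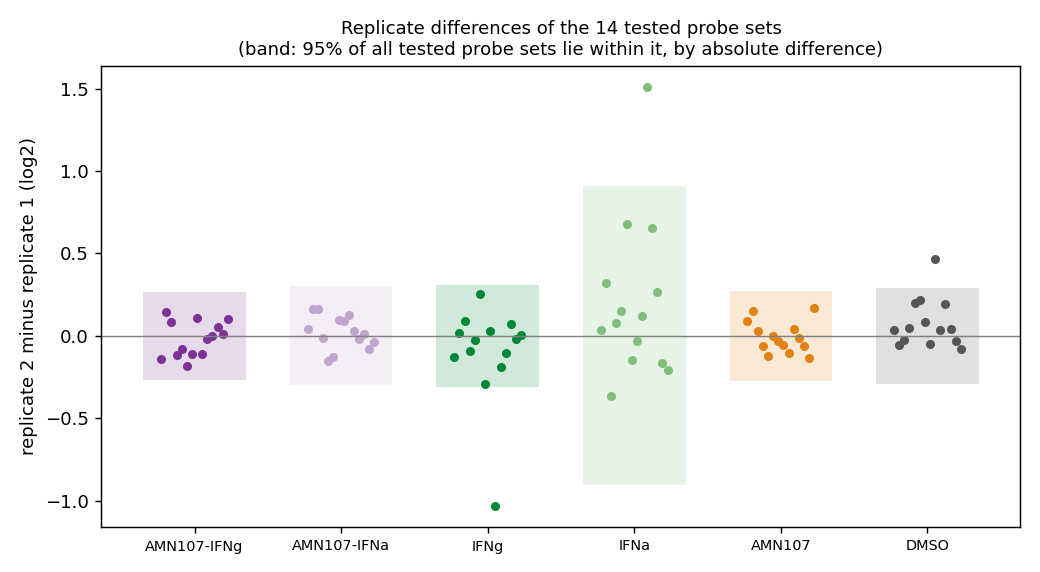
Replicate 2 minus replicate 1 (vertical axis, log2) of the 14 tested probe sets in each group, over a band that holds 95% of all tested probe sets by absolute difference. In the IFNa group 1 of the 14 lies beyond the wide band, Jak1 1433805_at, and in the IFNg group Jak1 1433804_at lies far below the band, as it lies above it in the DMSO group (0.46).

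Tyk2, the kinase bound to Ifnar1, was the steadiest member on its brighter probe set. The signals of 1417306_at were 78.6 and 79.3 with AMN107-IFNg, 83.5 and 78.5 with AMN107-IFNa, 72.6 and 71.6 with IFNg, 85.3 and 75.3 with IFNa, 84.5 and 76.2 with AMN107 and 82.7 and 80.6 with DMSO. The IFNg arrays were the lowest and the rest overlapped. IFNg differed from DMSO by -0.16 ± 0.09 (limma adjusted p = 0.307), and no comparison was called. On 1432576_at the signals were 50.1 and 54.4 with AMN107-IFNg, 47.9 and 46.3 with AMN107-IFNa, 64.5 and 64.8 with IFNg, 58.6 and 49.6 with IFNa, 47.8 and 54.8 with AMN107 and 68.1 and 63.8 with DMSO. The 6 arrays with AMN107 lay below the IFNg and DMSO arrays. AMN107 was below DMSO by 0.32 ± 0.10 (log2 -0.32, adjusted p = 0.0332), and without either or both IFNa arrays AMN107-IFNg was also below IFNg (-0.27, adjusted p = 0.0271 to 0.0275). The first call was lost under median centring (-0.25, adjusted p = 0.0695), without the filter on dim probe sets (0.0579), and without any single DMSO or AMN107 array (0.0556 to 0.2). The 2 probe sets correlated at r = -0.251, and at -0.34 without IFNa replicate 2.

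Ordered by group mean, the members fell into different patterns, and neighbours in an order were set apart only where their log2 means differed by more than 2 standard errors. This cut was not adjusted for the number of probe sets, so a step in an order is not a call. Ifnar2 1451462_a_at ran AMN107-IFNg, IFNg, AMN107-IFNa, AMN107, IFNa, DMSO, and the only neighbours not set apart were AMN107-IFNa, AMN107 and IFNa. Jak2 1421066_at ran AMN107-IFNg, AMN107-IFNa, IFNg, AMN107, IFNa, DMSO, with AMN107-IFNg apart from AMN107-IFNa, and AMN107 apart from IFNa. On Jak2 1421065_at AMN107 came before IFNg, and the steps were between AMN107-IFNg and AMN107-IFNa and between IFNa and DMSO. Ifngr1 ran IFNa, IFNg, DMSO, AMN107-IFNa, AMN107, AMN107-IFNg, with a single step between IFNg and DMSO. Ifngr2 1423557_at ran AMN107, AMN107-IFNa, AMN107-IFNg, IFNa, IFNg, DMSO, with no pair of neighbours set apart. Of the Jak1 probe sets, 1433803_at had its only step between IFNa and DMSO, 1433804_at had its only step between AMN107 and DMSO, and 1433805_at had none. The steps between IFNa and DMSO on Ifnar2 1451462_a_at, Jak2 1421065_at and Jak1 1433803_at were not called (limma adjusted p = 0.0692, 0.0744 and 0.115). Nor was that between IFNg and DMSO on Ifngr1 (limma adjusted p = 0.12). For Ifnar1 1449026_at and Tyk2 1417306_at no neighbours were set apart either, and limma's F test over the 6 groups had adjusted p = 0.147 and 0.585, where 40% of all probe sets passed. Tyk2 1432576_at passed that F test (adjusted p = 0.0284). Its only step was between IFNg and IFNa, and that difference was not called (limma adjusted p = 0.137).

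Other genes of the pathway were counted in lists of 4 to 13 tested genes. Their median differences of IFNg from DMSO were 0.56 for the STATs and Irf9, 0.04 for inhibitors, 0.17 for other cytokine receptors, -0.04 for the other class II chains and Jak3 and 0.09 for receptor turnover and scaffolds, against -0.02 over all probe sets. Of all probe sets 8.99% were called in that comparison and 1.79% in AMN107-IFNg against AMN107. Of the STATs and Irf9, the DNA-binding partner of STATs in type I signalling, 6 of 8 were tested, and 3 were higher and 0 lower with IFNg than with DMSO. These were Stat2, which relays type I signals (mean signal 86.3 with IFNg and 27.8 with DMSO, 1.39 ± 0.15, limma adjusted p = 0.000362), Irf9 (1.32 ± 0.17) and Stat3 (1.05 ± 0.11). With AMN107 alone, 2 were higher (Irf9 by 1.49 ± 0.17, Stat2 by 0.85 ± 0.15) and 2 lower, where 33.1% of all probe sets were called (Stat3 fell by 0.35 ± 0.11 on the log2 scale). In AMN107-IFNg cells against AMN107 cells 2 were higher, Stat3 by 1.46 ± 0.11 and Stat2 by 1.33 ± 0.15.

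Inhibitors of the pathway moved further than the receptors in some cases. Of 13 tested, 4 were higher and 1 lower with IFNg than with DMSO, led by Usp18, which binds Ifnar2 and dampens type I signalling (439 with IFNg and 78.5 with DMSO, 2.37 ± 0.23, limma adjusted p = 0.000171), Socs1 (1.52 ± 0.18) and Socs3 (1.43 ± 0.14), both inhibitors of JAK activity. With AMN107 alone 4 were higher and 3 lower than with DMSO, where 20.7% of all were higher and 12.4% lower. Usp18 was higher by 3.68 ± 0.23 (mean signal 1109 with AMN107) and Socs1 by 0.81 ± 0.18, and Socs3 fell by 0.74 ± 0.14. In AMN107-IFNg cells against AMN107 cells 2 were higher, Socs3 by 2.08 ± 0.14 and Socs1 by 0.91 ± 0.18.

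Among other cytokine receptors that use Jak1, Jak2 or Tyk2, 13 of 21 were tested. With IFNg 3 were higher than with DMSO and 0 lower: Il13ra1, a chain of the interleukin 13 receptor (1.70 ± 0.21, limma adjusted p = 0.000777), Il15ra, the alpha chain of the interleukin 15 receptor (1.66 ± 0.14), and Osmr, the oncostatin M receptor (1.57 ± 0.16). In AMN107-IFNg cells against AMN107 cells 3 were higher and 0 lower: Osmr by 1.70 ± 0.16, Il13ra1 by 1.42 ± 0.21 and Il15ra by 1.37 ± 0.14. With AMN107 alone 1 was higher (Il15ra, 0.61 ± 0.14) and 3 were lower, a share of the 13 near the 33.1% of all probe sets called there. Of the other class II chains and Jak3, 4 of 9 were tested and 1 was higher with IFNg, F3, the tissue factor (0.85 ± 0.17). Of 7 genes of receptor turnover and scaffolds 0 were called with IFNg against DMSO (2 at an unadjusted p under 0.05), and 1 was lower with AMN107, the ubiquitin ligase Cbl, which fell by 0.32 ± 0.11 (adjusted p = 0.0484). In AMN107-IFNa cells against AMN107 cells 0 genes of any of the 5 lists were called by limma's adjusted p, where 0.119% of all probe sets were. At an unadjusted p under 0.05 there were 2 of the other cytokine receptors, 1 inhibitor, 1 of the STATs and Irf9, and 0 in the other lists.

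**Figure D5:**
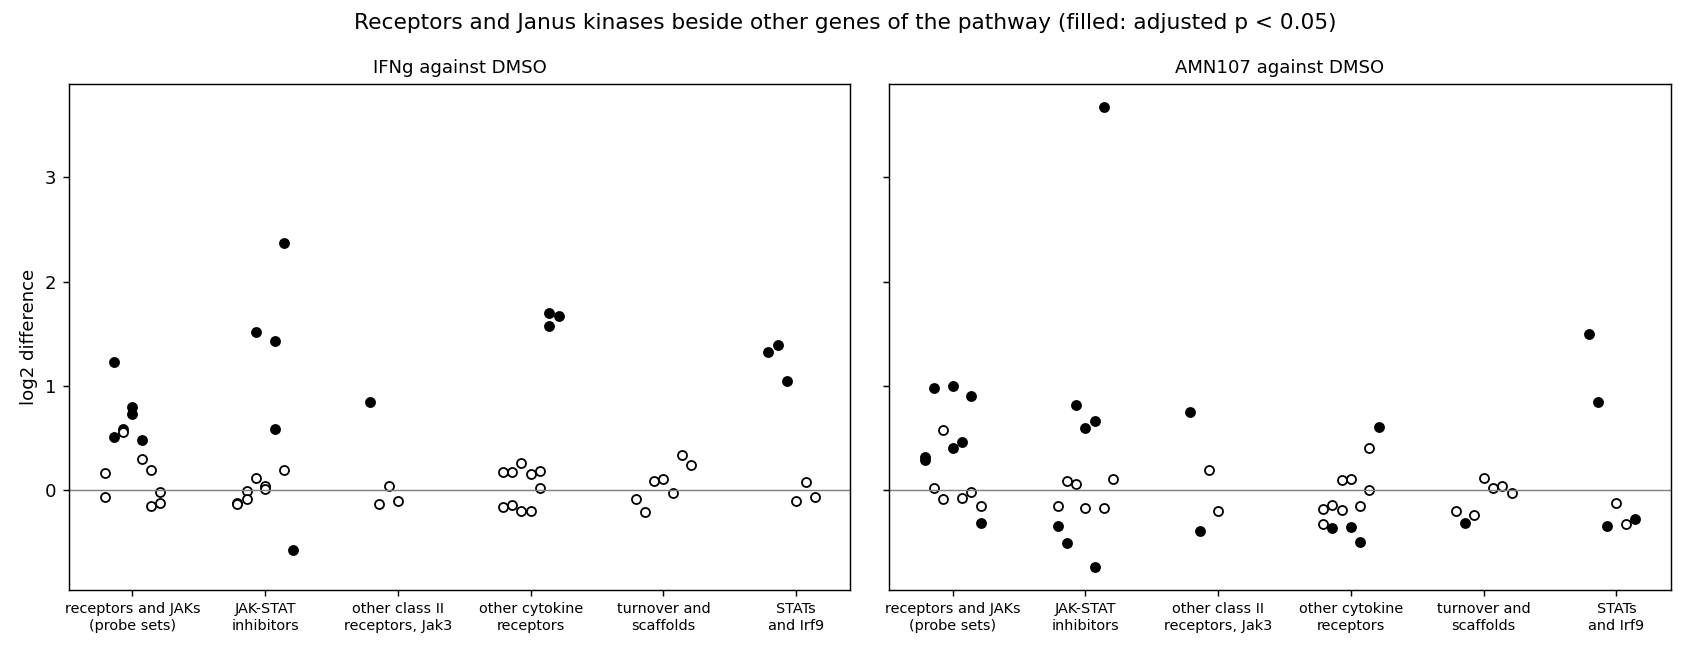
Difference (vertical axis, log2) of the 14 probe sets of receptors and Janus kinases and of the tested genes of 5 pathway lists, with IFNg against DMSO and with AMN107 against DMSO, filled where called at adjusted p under 0.05. Usp18 is the highest point in both panels (2.37 and 3.68), and the receptors and kinases reach 1.23 and 1.0.

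The genes whose signals ran most like each member over the 12 arrays were described by Pearson's r among 4993 genes that passed the F test. Arrays of a group share their treatment, so r has no test here. For Ifnar2 they were Katna1 (r = 0.988), Fhod3 (0.976) and Nlrc5 (0.975), and for Jak2 they were Abhd3 (0.964), Peli1 (0.963) and Rnf19b (0.962). For Ifngr1 they were Ankrd40 (0.972), Pofut1 (0.97) and Tfb1m (0.968), and for Ifngr2 they were Ubac1 (0.979), Bcap29 (0.978) and Prkacb (0.97). Without IFNa replicate 2 these r were 0.954 to 0.992. The brightest probe sets of Ifnar1, Jak1 and Tyk2 did not pass the F test and were not matched.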

How the data were processed

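RNA from MEFs was hybridised to 12 Affymetrix arrays, 2 in each of 6 groups taken from the sample titles. The deposited values were linear probe set intensity, made by the authors with MAS5, per the submitters' processing notes; version, scaling and detection calls are not given in the sources used here. Of 45101 probe sets, 64 controls were left out; 34945 carried 1 gene by the platform annotation, 932 carried several, and 9160 were unnamed. RefSeq (GRCm38.p6) symbols were fetched for 34741 through their gene IDs, and 0 changed. The pseudocount of 8.66, added before log2, was the mean 25th percentile of the 12 arrays. Tested were the 24353 probe sets above the median of 2 or more arrays. No further normalization was applied. Group means were fitted with limma 3.58.1 in R 4.3.3 (lmFit, eBayes with a trend), with 10 two-sided contrasts and Benjamini-Hochberg adjustment over all tested probe sets. In simulated data, 86% of 200 probe sets changed by 1 on the log2 scale in IFNg against DMSO were called, with 6 false calls. The simulated noise was normal, with the same spread on all arrays, and so had no array like IFNa replicate 2. A change of 1 exceeds the median member difference of 0.39 in that comparison, and smaller changes were not simulated. The number of arrays limits the precision. Alternatives changed the normalization, pseudocount, filter, probe set per gene, array weights, arrays in the fit and block. Named were all member probe sets, per list at most the 3 called genes of largest change, and the 3 genes of highest r per member. Members and lists were chosen with earlier results of these data known.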

Additional observations from a re-analysis of the deposited data

Results flagged for a closer look

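Usp18, the deconjugase of ISG15 that binds Ifnar2, was singled out because its response to interferon differed with AMN107, by the test of the difference itself. The interaction was -2.92 ± 0.33 (log2, SE) with IFNa (limma adjusted p = 0.00659) and -1.68 ± 0.33 with IFNg (adjusted p = 0.038). Its mean signal was 1786 with AMN107-IFNg, 1909 with AMN107-IFNa, 439 with IFNg, 1169 with IFNa, 1109 with AMN107 and 78.5 with DMSO. The interactions are on the log2 scale. In linear signal the rise with IFNg was larger from AMN107 (1109 to 1786) than from DMSO (78.5 to 439), whereas that with IFNa was smaller. The sign for IFNg thus depends on the scale. Without IFNa replicate 2 the first interaction, that with IFNa, was -2.49. In the settings tried, its adjusted p reached 0.109 in a fit of the 4 groups alone, and the second reached 0.201 without DMSO replicate 1.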

How the results depend on the processing

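Counts are of called member probe sets, of 14, with the share of all tested probe sets called in parentheses where given. Under quantile normalization they were 0 for IFNa against DMSO (7.49%) and 5 for AMN107 against DMSO (34.4%). Under median centring they were 8 for IFNa against DMSO (25.7%) and 1 for AMN107-IFNa against IFNa (23.7%). With 1 probe set per gene, which leaves 7, they were 1 for IFNa (17.5%), 2 for IFNg (9.05%) and 4 for AMN107 (34.7%) against DMSO. In the same setting they were 2 for AMN107-IFNg against AMN107 (2.59%), 3 for AMN107-IFNg against IFNg (19.1%) and 1 for IFNg against IFNa (18%). With array weights they were 0 for IFNa against DMSO (0.472%), AMN107-IFNa against IFNa (7.01%) and IFNg against IFNa (0.875%), and 2 for the IFNg interaction (12.3%). With only the groups compared these counts were the same, with 0.152%, 0.238%, 0.131% and 13% of all called in that order. Without both IFNa arrays the IFNg interaction also had 2 (13.1%). A filter at the 75th percentile, which leaves 9, gave 4 for IFNg against IFNa (21.7%). Leaving out each array in turn gave 0 to 9 for IFNa, 1 to 8 for IFNg and 1 to 9 for AMN107 against DMSO, 1 to 5 for AMN107-IFNg against AMN107, 0 to 7 for AMN107-IFNa against IFNa and AMN107-IFNg against IFNg, 0 to 6 for IFNg against IFNa and the IFNa interaction, and 0 to 2 for the IFNg interaction. Where 1 array of a group was left, it was assumed to vary like the others. The shares of all probe sets called moved as well, and why the counts moved was not tested. Jak1 1433805_at in AMN107-IFNa against IFNa ran from -1.15 without IFNa replicate 1 to 0.36, reversed, without IFNa replicate 2. With the replicate block the counts were the same, 8 for AMN107 (33.1%) and 6 for IFNg (8.78%) against DMSO. The differences between replicate 1 and replicate 2 over all tested probe sets were correlated between groups. These correlations ran from -0.14 to 0.321 over 15 pairs of groups, 3 above 0.1 and 4 below -0.1. They do not exclude a pairing, and none was used in the main fit.

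Over all probe sets, IFNg against DMSO gave 2189 calls, 7011 without both IFNa arrays, 5901 with array weights and 1103 with 1 probe set per gene, and AMN107 against DMSO gave 8054 and 12727, 13190 and 4235. IFNa against DMSO gave 2921, 115 with array weights, 37 in its groups alone and 1417 without IFNa replicate 2. Of called probe sets, 5046 were higher and 3008 lower with AMN107, 3857 and 4523 after quantile normalization, and 6065 and 1913 after median centring. For IFNg these were 1621 and 568, and 1639 and 1424 after quantile normalization. Median centring moved the median of all differences to 0.14 for IFNa against DMSO.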
